A study of Mus musculus with 4 samples.

Results

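Immediate early genes are switched on within minutes of a stimulus without new protein synthesis, and heat shock genes encode chaperones that are induced by misfolded protein and by handling stress. The 33 genes described here, of 55385 genes counted, were taken by symbol from a list that holds both kinds, and all 33 were found. They comprise 7 subunits or partners of the transcription factor AP-1 (Fos, Fosb, Fosl2, Jun, Junb, Jund and Atf3), 15 other immediate early genes, 4 genes known as markers of receptor signalling (Egr2, Egr3, Nr4a3 and Tnf) and 7 heat shock genes. The question was whether genes of the kind induced by tissue dissociation (Fos, Jun and the heat shock genes) and receptor-signal genes moved together across spleen cell types and along the maturation of type 1 conventional dendritic cells (cDC1). Both sequencing libraries were made from spleen cells of WT C57BL6 mice at steady state, the one genotype and condition in these data, and each joined RNA counts to counts of oligonucleotide-tagged surface antibodies (CITE-seq). The sort loaded mostly XCR1-positive cDC1, with smaller shares of CD172a-positive cDC2 and of random live cells, so numbers of cells per type reflect the sort. Dendritic cells were enriched by negative selection before sorting, and the labels tie neither library to a single mouse. The main tests held the library as a block, so a shift shared by all cell groups of a library is not in their error. Their p-values measure how differences between cell groups vary between the 2 libraries, estimated over all groups of a fit. That spread may be technical.

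In dendritic cells, mitogen-activated kinase and calcium signals raise the Egr and Nr4a factors, and AP-1 is assembled from Fos and Jun family subunits. The Dusp phosphatases switch off the same kinases, and Zfp36 destabilises cytokine transcripts such as Tnf. Heat shock factor drives Hspa1a, Hspa1b, Dnajb1 and Hsph1, whereas Hspa8 is made constitutively. Enzymatic digestion and sorting are known to raise Fos, Jun and Hspa1a transcripts in many tissues, while cDC1 maturation at steady state is marked by Ccr7, the receptor for lymph node and T cell zone homing, and by Fscn1, an actin-bundling protein.

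The libraries held 13822 and 17968 barcodes, with 99617992 and 129565040 RNA UMIs, of which 12166 and 15976 cells were kept after filters and removal of 546 and 1064 called doublets. Median depth was 6941.5 and 6884.5 UMIs a cell, and 61 barcode sequences occurred in both libraries. cDC1 were gated by at least 3 XCR1 and at most 2 CD172a antibody UMIs, and steps were set by UMIs of Ccr7 and Fscn1. Ccr7-negative cDC1 (0 UMIs of both) numbered 4738 and 7185 cells, intermediate cDC1 (Ccr7 at least 3, Fscn1 at most 2) 140 and 158, and late cDC1 (both at least 3) 99 and 117. The same steps of cDC2 (CD172a at least 3, XCR1 at most 2) held 1310 and 1429, 271 and 270, and 91 and 98 cells. Other cells carry the names of the cell types whose markers led their clusters, as in NK cell-like. Against its markers the cDC1 label held in Ccr7-negative cDC1. There the 8 cDC1 markers, Xcr1 and Clec9a among them, summed to 3414 and 3715 CPM (UMI counts scaled to a common total per class and library). The 8 cDC2 markers summed to 149.9 and 144 CPM in these cells. In late cDC1 the cDC1 markers summed to 978 and 1410 CPM and the cDC2 markers to 174 and 212 CPM. From Ccr7-negative to late cDC1, 7 of 8 cDC1 markers were called lower and 2 of 8 cDC2 markers higher by edgeR. Of all genes, 45.0% changed in that comparison (21.9% higher, 23.1% lower). In Ccr7-negative cDC2 the cDC2 markers summed to 731 and 676 CPM and the cDC1 markers to 745 and 791 CPM. Mean XCR1 antibody was 0.374 and 0.446 UMIs a cell in Ccr7-negative cDC2, beside 0.375 and 0.524 in NK cell-like cells, against 7.27 and 7.02 in Ccr7-negative cDC1. Late cDC1 had 55.0 and 84.1 CPM of B cell markers, against 17.0 and 12.9 CPM in Ccr7-negative cDC1, and 208 and 202 CPM of red pulp macrophage markers, against 37.7 and 44.0 CPM in Ccr7-negative cDC1, and 4 of 6 and 2 of 6 of these markers rose in late cDC1. Erythroid markers summed to 200.1 and 386 CPM in Ccr7-negative, 1543 and 738 CPM in intermediate and 57.9 and 45.2 CPM in late cDC1. The part of all these markers in the results below was not tested.

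Promoter windows from 250 bases before to 50 bases after the gene start were matched for 27 of the 33 members (RefSeq, GRCm38.p6). Hspa1a and Hspa1b are shown first because they are near-identical copies that moved together below, and capitals mark the letters GAANNTTC, the core of a heat shock element. The windows lie on the minus strand of chromosome 17, at chr17:34972107-34972406 for Hspa1a and chr17:34959189-34959488 for Hspa1b.

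Hspa1a: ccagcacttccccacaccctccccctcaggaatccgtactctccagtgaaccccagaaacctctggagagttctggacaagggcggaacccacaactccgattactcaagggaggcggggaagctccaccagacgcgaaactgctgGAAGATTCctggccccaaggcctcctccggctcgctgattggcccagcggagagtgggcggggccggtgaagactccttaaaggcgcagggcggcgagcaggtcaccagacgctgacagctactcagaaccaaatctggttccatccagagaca

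Hspa1b: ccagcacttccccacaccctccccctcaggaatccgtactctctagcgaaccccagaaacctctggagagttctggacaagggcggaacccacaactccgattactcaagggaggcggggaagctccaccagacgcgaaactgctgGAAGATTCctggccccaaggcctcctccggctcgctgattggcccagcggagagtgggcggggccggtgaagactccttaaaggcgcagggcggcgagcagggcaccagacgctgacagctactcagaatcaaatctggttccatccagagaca

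These sequences are identical at 296 of 300 bases (98.7%), with GAANNTTC starting at position -104 in both. As background, these genes are near-identical paralogs, and their separate values are uncertain because the assignment of reads between them was not examined. Read on both strands, GAANNTTC occurs in 7.86% of 32851 windows genome-wide and in 7 of 35 member windows. These belong to 6 members, 4 of them heat shock genes (Hspa1a, Hspa1b, Hsph1 and Dnaja1) and the others Jun and Fosl2. Of the 7 heat shock members, 5 had a matched window. The core in its other phase, TTCNNGAA, occurs in 8.52% of all windows and in 3 of 35 member windows, of Hsph1 and Egr2.

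Fos (plus strand, chr12:85473640-85473939), Nr4a3 (plus strand, chr4:48045055-48045354) and Egr2 (plus strand, chr10:67537619-67537918) are shown because they went different ways along cDC1 maturation. Capitals mark TGACGT, the core letters of a cyclic AMP response element, on either strand, and in Egr2 also a serum response element at position -72. Egr2 has windows at several gene starts, and the one shown is the first that holds both motifs. Its window at chr10:67535249-67535548 holds neither, and that at chr10:67537316-67537615 holds no TGACGT.

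Fos: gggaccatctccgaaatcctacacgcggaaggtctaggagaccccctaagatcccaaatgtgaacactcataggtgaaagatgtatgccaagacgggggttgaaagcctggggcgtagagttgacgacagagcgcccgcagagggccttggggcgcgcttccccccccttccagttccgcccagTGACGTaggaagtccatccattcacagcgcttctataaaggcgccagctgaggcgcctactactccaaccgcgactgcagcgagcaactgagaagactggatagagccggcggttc

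Nr4a3: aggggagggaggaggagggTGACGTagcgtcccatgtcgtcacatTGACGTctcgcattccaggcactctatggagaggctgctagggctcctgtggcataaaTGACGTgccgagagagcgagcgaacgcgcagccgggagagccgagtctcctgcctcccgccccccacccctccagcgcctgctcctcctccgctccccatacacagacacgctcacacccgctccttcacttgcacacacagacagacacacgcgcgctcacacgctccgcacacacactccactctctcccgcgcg

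Egr2: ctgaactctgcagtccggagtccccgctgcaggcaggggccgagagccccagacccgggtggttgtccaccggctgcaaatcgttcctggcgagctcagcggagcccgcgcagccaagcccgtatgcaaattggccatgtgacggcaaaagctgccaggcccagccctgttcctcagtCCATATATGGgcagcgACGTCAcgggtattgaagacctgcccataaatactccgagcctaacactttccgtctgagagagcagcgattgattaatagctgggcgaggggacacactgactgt

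TGACGT occurs in 7.51% of windows and in 9 of 35 member windows, of 7 members, and the Nr4a3 window holds it 3 times, the Fos window once. A serum response element occurs in 1.63% of windows and in 6 of 35 member windows, of 3 members, Egr2, Dusp5 and Zfp36. TGACGT stood in members that fell in late cDC1 (Fos, Egr2 and Btg2) and in members that rose there (Nr4a3, Dusp1 and Dusp5). A match describes letters, not binding.

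Across the 14 cell classes that held 30 or more cells in both libraries, the members did not share one ranking. Fos was highest in Ccr7-negative cDC2 (1844 and 1667 CPM), followed by neutrophil-like cells (1413 and 1289 CPM), and lowest in erythroid-like cells (131 and 153 CPM). Junb, in contrast, was highest in NK cell-like cells (3179 and 2711 CPM), as were Fosl2, Ier2, Dusp2 and Dnaja1. B cell-like cells had the highest Jund (1821 and 2079 CPM), Klf2 and Myc. Jun was highest in late cDC2, at 1097 and 1119 CPM, and its level in plasma cell-like cells spread from 734 to 1070.3 CPM between libraries.

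The receptor-signal genes were highest in conventional dendritic cells. Egr3 had 231 and 384 CPM in Ccr7-negative cDC1 and 218 and 246 CPM in Ccr7-negative cDC2, ranges that overlap, and 216 and 177 CPM in B cell-like cells. Egr2 was highest in Ccr7-negative cDC2 (114 and 132 CPM), with 68.0 and 112 CPM in Ccr7-negative cDC1. Nr4a3 and Tnf, in turn, were highest in intermediate cDC1, Nr4a3 at 648 and 667 CPM and Tnf at 88.3 and 123 CPM. Heat shock genes had 2 different orders. Hsp90aa1, the inducible cytosolic form of heat shock protein 90, was highest in erythroid-like cells (2466 and 2587 CPM), which also led for Hspa8, Hsph1 and Dnajb1. Hspa1a and Hspa1b were highest in late cDC1, with Hspa1a at 939 and 411 CPM, against 119 and 84.0 CPM in erythroid-like cells and 58.9 and 40.3 CPM in NK cell-like cells. The classes with the highest and second-highest mean overlapped between libraries for 12 members, Hspa1a, Egr3 and Tnf among them, so their top place is not set beyond the spread.

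**Figure D1:**
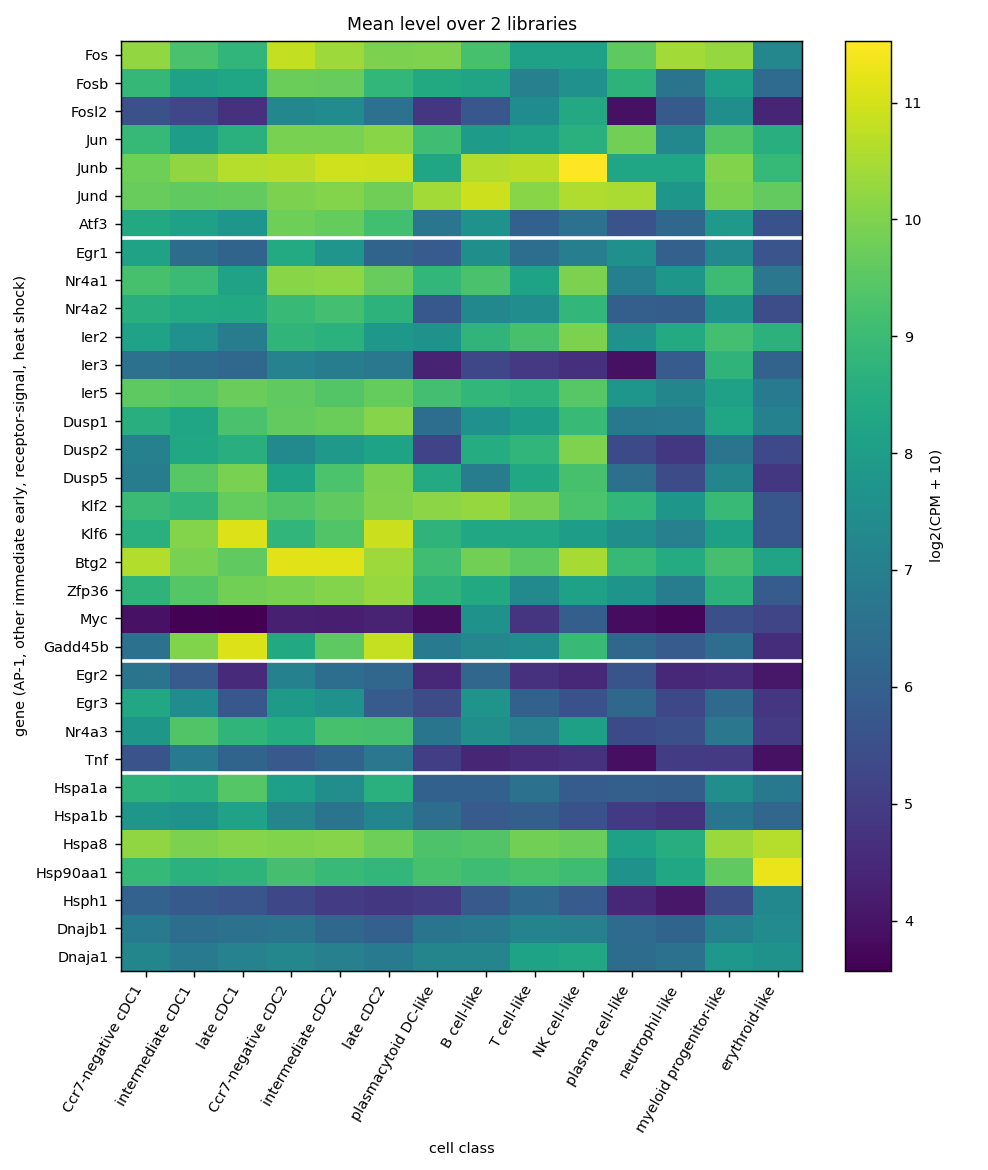
Mean level of each member over 2 libraries, as log2(CPM + 10), with genes down the page grouped by role and cell classes across. Within their rows, Gadd45b and Klf6 are brightest in late cDC1, Fos in Ccr7-negative cDC2, Hsp90aa1 in erythroid-like cells and Junb in NK cell-like cells.

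Over the 14 classes, the mean log2 level of Fos and Jun and that of the 4 receptor-signal genes had a Pearson r of 0.54 in library 1 and 0.44 in library 2. Fos and Jun against the 7 heat shock genes gave -0.09 in library 1 and -0.21 in library 2, and the whole AP-1 list against the receptor-signal genes gave 0.82 in library 1 and 0.72 in library 2. Within the receptor-signal list, Egr2 and Egr3 against Nr4a3 and Tnf gave 0.49 in library 1 and 0.56 in library 2. Hspa1a and Hspa1b followed Nr4a3 and Tnf over the classes (r of 0.69 in library 1 and 0.76 in library 2) more than Fos and Jun (r of 0.32 in library 1 and 0.27 in library 2). These are descriptions over 14 classes that share libraries and differ in depth, and 6 of them are dendritic cell steps. Over 28 class and library sums and 6034 genes, the 5 genes whose pattern was most like Fos were Nfam1, Napsa, Myo5a, Tmem50b and Lyn (Pearson r of 0.83 to 0.80), with Egr2 at 0.54 and Jun at 0.37. Egr3 was most like Egr2 (0.87), Lrrk2, Havcr2, Wdfy4 and Amz1 (0.85 for the last), while Egr1 was at 0.80 and Nr4a3 at 0.50.

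Along cDC1 maturation the members split within every role except heat shock. In late against Ccr7-negative cDC1, 13 of 33 members rose and 9 fell, and 45.0% of all genes tested changed (4846 of 10773 genes, edgeR quasi-likelihood test, adjusted p under 0.05), 21.9% up and 23.1% down. The members' median log2 fold change was 0.08, and that of all genes -0.19, or 0.01 with DESeq2's scaling. In intermediate against Ccr7-negative cDC1, 8 rose and 8 fell, beside 28.6% of all genes changed (15.1% higher, 13.5% lower). Both comparisons share the Ccr7-negative cDC1, so their values are given side by side. In late against intermediate cDC1, 10 were higher and 7 lower, beside 19.8% of all genes (10.8% higher, 8.97% lower). Levels below are CPM in library 1 and library 2, and fold changes are log2 differences from that test with 2 libraries a step.

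Of the AP-1 genes, Fos, Fosb and Fosl2 fell in late cDC1 and Junb rose. Fos had 1210.4 and 1208 CPM in Ccr7-negative, 623 and 574 CPM in intermediate and 449 and 429 CPM in late cDC1. The 3 steps did not overlap, and the late change was -1.24 ± 0.13 (SE), adjusted p = 1.14e-10. Junb, an AP-1 subunit that can oppose Jun, went the other way with 846 and 889.8 CPM in Ccr7-negative, 1222 and 1101 CPM in intermediate and 1741 and 1460.1 CPM in late cDC1 (late change 1.11 ± 0.12 (SE), adjusted p = 9.58e-10). Jun had 503 and 438 CPM in Ccr7-negative, 300.2 and 196 CPM in intermediate and 444 and 325 CPM in late cDC1, so it was lowest in the middle step: its intermediate change was -0.71 ± 0.16 (SE), adjusted p = 0.000665, and its late change of -0.07 ± 0.16 did not pass. Fosb, a Fos paralog, had 453 and 457 CPM in Ccr7-negative, 272 and 269.8 CPM in intermediate and 294 and 298 CPM in late cDC1, with a late change of -0.40 ± 0.16 (SE), adjusted p = 0.0383 and an intermediate change of -0.52 ± 0.15. Fosl2, a Fos-related subunit, had 34.1 and 38.5 CPM in Ccr7-negative, 28.1 and 29.4 CPM in intermediate and 18.8 and 13.8 CPM in late cDC1 (late change -0.95 ± 0.32 (SE), adjusted p = 0.0133). Jund, an AP-1 subunit present in resting cells, had 816 and 808 CPM in Ccr7-negative, 831 and 696 CPM in intermediate and 777 and 773 CPM in late cDC1, and Atf3, a stress-induced partner of AP-1, had 321 and 332 CPM in Ccr7-negative, 331 and 212 CPM in intermediate and 237 and 173 CPM in late cDC1. Their late changes of 0.16 ± 0.12 and -0.45 ± 0.20 did not pass. Fosb lost its late call with size factors in place of TMM, at -0.31 (adjusted p = 0.12). Without late library 2 the late change of Fosb was -0.41 (adjusted p = 0.12) and that of Fosl2 -0.81 (adjusted p = 0.15).

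The other immediate early genes held the largest rises. Gadd45b, a stress sensor that binds kinases of the MAP kinase cascade, had 66.3 and 98.8 CPM in Ccr7-negative, 984 and 1074 CPM in intermediate and 2297 and 2060.2 CPM in late cDC1. Its change was 4.96 ± 0.17 (SE), adjusted p = 4.87e-25 in late and 3.87 ± 0.16 in intermediate cDC1. Dusp5, a nuclear phosphatase of ERK, had 99.6 and 123 CPM in Ccr7-negative, 702 and 679.6 CPM in intermediate and 993 and 939 CPM in late cDC1 (late change 3.34 ± 0.13 (SE), adjusted p = 7.08e-23). On the log2 scale most of the rise of both genes was present in the intermediate step. In CPM this held for Dusp5, while Gadd45b gained more between the intermediate and the late step than before it in both libraries. Klf6, a Krüppel-like factor, had 363 and 399.9 CPM in Ccr7-negative, 1095 and 994 CPM in intermediate and 2371 and 2060.2 CPM in late cDC1, with a late change of 2.77 ± 0.11 (SE), adjusted p = 1.90e-22. Dusp2, another MAP kinase phosphatase, had 115 and 134 CPM in Ccr7-negative, 323 and 309 CPM in intermediate and 418 and 334 CPM in late cDC1 (1.81 ± 0.15 (SE), adjusted p = 5.40e-13). Zfp36, which promotes decay of AU-rich transcripts, had 435 and 405 CPM in Ccr7-negative, 780.3 and 567 CPM in intermediate and 1064 and 741 CPM in late cDC1 (1.31 ± 0.12 (SE), adjusted p = 1.18e-11). All 5 of these genes rose in the intermediate step as well, and none had overlapping values between late and Ccr7-negative cDC1.

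A further set rose in late cDC1 without a called change in the intermediate step. Dusp1, a phosphatase of p38 and JNK, had 375 and 360.0 CPM in Ccr7-negative, 340.4 and 254 CPM in intermediate and 625 and 564 CPM in late cDC1. Its late change was 0.92 ± 0.12 (SE), adjusted p = 4.92e-08, and its intermediate change -0.09 ± 0.12. Klf2, a factor linked to quiescence and migration of lymphocytes, had 480.1 and 510.3 CPM in Ccr7-negative, 517 and 356 CPM in intermediate and 871 and 721 CPM in late cDC1 (late change 0.92 ± 0.17 (SE), adjusted p = 2.01e-05). Ier5, an immediate early gene that acts on heat shock factor, had 728 and 757 CPM in Ccr7-negative, 686 and 691 CPM in intermediate and 815 and 824 CPM in late cDC1. Its late change of 0.37 ± 0.11 (SE), adjusted p = 0.00475 was small. It was 0.24 (adjusted p = 0.19) without late library 1, 0.32 (adjusted p = 0.07) without late library 2 and 0.22 (adjusted p = 0.18) without Ccr7-negative library 1.

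Egr1, Ier2, Nr4a1 and Btg2 fell. Egr1, a zinc finger factor induced by ERK signalling, had 225 and 327 CPM in Ccr7-negative, 70.6 and 76.5 CPM in intermediate and 27.5 and 91.6 CPM in late cDC1. The late change was -1.95 ± 0.28 (SE), adjusted p = 2.79e-07, and both late libraries were below both Ccr7-negative libraries although they differed from each other. Ier2 had 259 and 287 CPM in Ccr7-negative, 198 and 169 CPM in intermediate and 111 and 109 CPM in late cDC1 (-1.09 ± 0.14 (SE), adjusted p = 2.62e-08). Btg2, an antiproliferative cofactor, had 1573 and 1525 CPM in Ccr7-negative, 1062 and 884 CPM in intermediate and 808 and 718 CPM in late cDC1 (-0.80 ± 0.14 (SE), adjusted p = 1.11e-05). Nr4a1, an orphan nuclear receptor induced by antigen receptors, had 570.3 and 595 CPM in Ccr7-negative, 535 and 469 CPM in intermediate and 278 and 269.9 CPM in late cDC1. Its intermediate change was 0.00 ± 0.11 and its late change -0.87 ± 0.13 (SE), adjusted p = 3.70e-07, so the fall lay after the intermediate step. Ier3, an inhibitor of apoptosis, had 66.2 and 106 CPM in Ccr7-negative, 45.8 and 101 CPM in intermediate and 52.1 and 77.8 CPM in late cDC1. Its late change (-0.16 ± 0.29) and that of Nr4a2, a relative of Nr4a1 (0.02 ± 0.19), did not pass. The intermediate calls of Ier2 (-0.36 ± 0.11) and Btg2 (-0.45 ± 0.13) were lost without 1 library: Ier2 was -0.21 (adjusted p = 0.24) without Ccr7-negative library 2 and also lost its call without either intermediate library, and Btg2 was -0.42 (adjusted p = 0.085) without intermediate library 2. Myc had 0 UMIs in late library 1, where 3 counts correspond to 4.34 CPM, and 3.77 CPM in late library 2, against 6.58 and 4.65 CPM in Ccr7-negative cDC1, a difference that was not detectable at this depth.

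The 4 receptor-signal genes divided into a pair that fell and a pair that peaked in the middle step. Egr3 had 231 and 384 CPM in Ccr7-negative, 128 and 203 CPM in intermediate and 20.3 and 65.3 CPM in late cDC1. Late and Ccr7-negative values did not overlap, and the changes were -2.60 ± 0.29 (SE), adjusted p = 8.33e-10 in late and -0.66 ± 0.19 (SE), adjusted p = 0.00885 in intermediate cDC1. Egr2, a close relative of Egr3, had 68.0 and 112 CPM in Ccr7-negative, 34.5 and 60.3 CPM in intermediate and 5.79 and 20.1 CPM in late cDC1, with a late change of -2.53 ± 0.35 (SE), adjusted p = 1.25e-07. Nr4a3, a nuclear receptor induced by antigen-receptor and pattern-receptor signals, had 177 and 242 CPM in Ccr7-negative, 648 and 667 CPM in intermediate and 419.7 and 443 CPM in late cDC1. It rose in the intermediate step (1.88 ± 0.14 (SE), adjusted p = 5.11e-14) and stood lower in the late than in the intermediate step (-0.61 ± 0.16 (SE), adjusted p = 0.00415). Tnf, the inflammatory cytokine, had 30.2 and 49.6 CPM in Ccr7-negative, 88.3 and 123 CPM in intermediate and 36.2 and 84.1 CPM in late cDC1, with an intermediate change of 1.64 ± 0.17 (SE), adjusted p = 2.71e-10 and a late change of 0.82 ± 0.23 (SE), adjusted p = 0.00379. All 4 were lower in late than in intermediate cDC1 by edgeR, Egr3 with -1.94 and Egr2 with -1.85 on the log2 scale. DESeq2 called 2 of them there. Nr4a3 (-0.54, adjusted p = 0.13) and Tnf (-0.80, adjusted p = 0.12) did not pass with DESeq2. The intermediate falls of Egr2 and Egr3 were smaller and did not hold in every setting. With DESeq2 and both libraries kept, Egr2 was -0.68 (adjusted p = 0.21) and Egr3 -0.64 (adjusted p = 0.25). By edgeR both calls were lost without intermediate library 1, at -0.55 for Egr2 and -0.60 for Egr3. Both were also lost without Ccr7-negative library 2, at -0.52 for Egr2 and -0.53 for Egr3. Tnf in late cDC1 rests on late library 2, since without it the change was 0.40 (adjusted p = 0.48).

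In the intermediate step edgeR called 0 of 7 heat shock members, 0 had an unadjusted p under 0.05, and DESeq2 called 0. In late cDC1, Hspa1a and Hspa1b, the inducible HSPA chaperones, rose by edgeR and the other 5 did not pass that test. Hspa1a had 558 and 259 CPM in Ccr7-negative, 549 and 185 CPM in intermediate and 939 and 411 CPM in late cDC1. The late change was 0.96 ± 0.16 (SE), adjusted p = 3.69e-06, and within each library late was above Ccr7-negative, but across libraries the values overlap, since late library 2 lay below Ccr7-negative library 1. Hspa1b had 282 and 137 CPM in Ccr7-negative, 283 and 93.5 CPM in intermediate and 352 and 205 CPM in late cDC1 (0.68 ± 0.17 (SE), adjusted p = 0.00121). With the gate at 5 antibody UMIs both calls were lost, at 0.30 (adjusted p = 0.18) for Hspa1a and 0.08 (adjusted p = 0.82) for Hspa1b. Without late library 1 Hspa1b was 0.54 (adjusted p = 0.069). Dnajb1, a J-domain cochaperone, had 134 and 83.7 CPM in Ccr7-negative, 104 and 51.8 CPM in intermediate and 113 and 52.7 CPM in late cDC1. Dnaja1, another J-domain cochaperone, had 157 and 122 CPM in Ccr7-negative, 119 and 92.0 CPM in intermediate and 116 and 136 CPM in late cDC1, and Hsph1, a nucleotide exchange factor, had 67.2 and 48.6 CPM in Ccr7-negative, 63.4 and 30.9 CPM in intermediate and 42.0 and 38.9 CPM in late cDC1. Hsp90aa1 had 524 and 407 CPM in Ccr7-negative, 485 and 300.0 CPM in intermediate and 470.3 and 367 CPM in late cDC1. These 4 genes and Hspa8 did not pass the edgeR test in late cDC1, where the changes were for Hspa8 (0.12 ± 0.09), Hsp90aa1 (0.08 ± 0.13), Hsph1 (-0.27 ± 0.23), Dnajb1 (-0.17 ± 0.18) and Dnaja1 (0.10 ± 0.13). DESeq2 called 3 heat shock members there, Hspa8 beside Hspa1a and Hspa1b, with a change of 0.20 (adjusted p = 0.00915) for Hspa8.

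**Figure D2:**
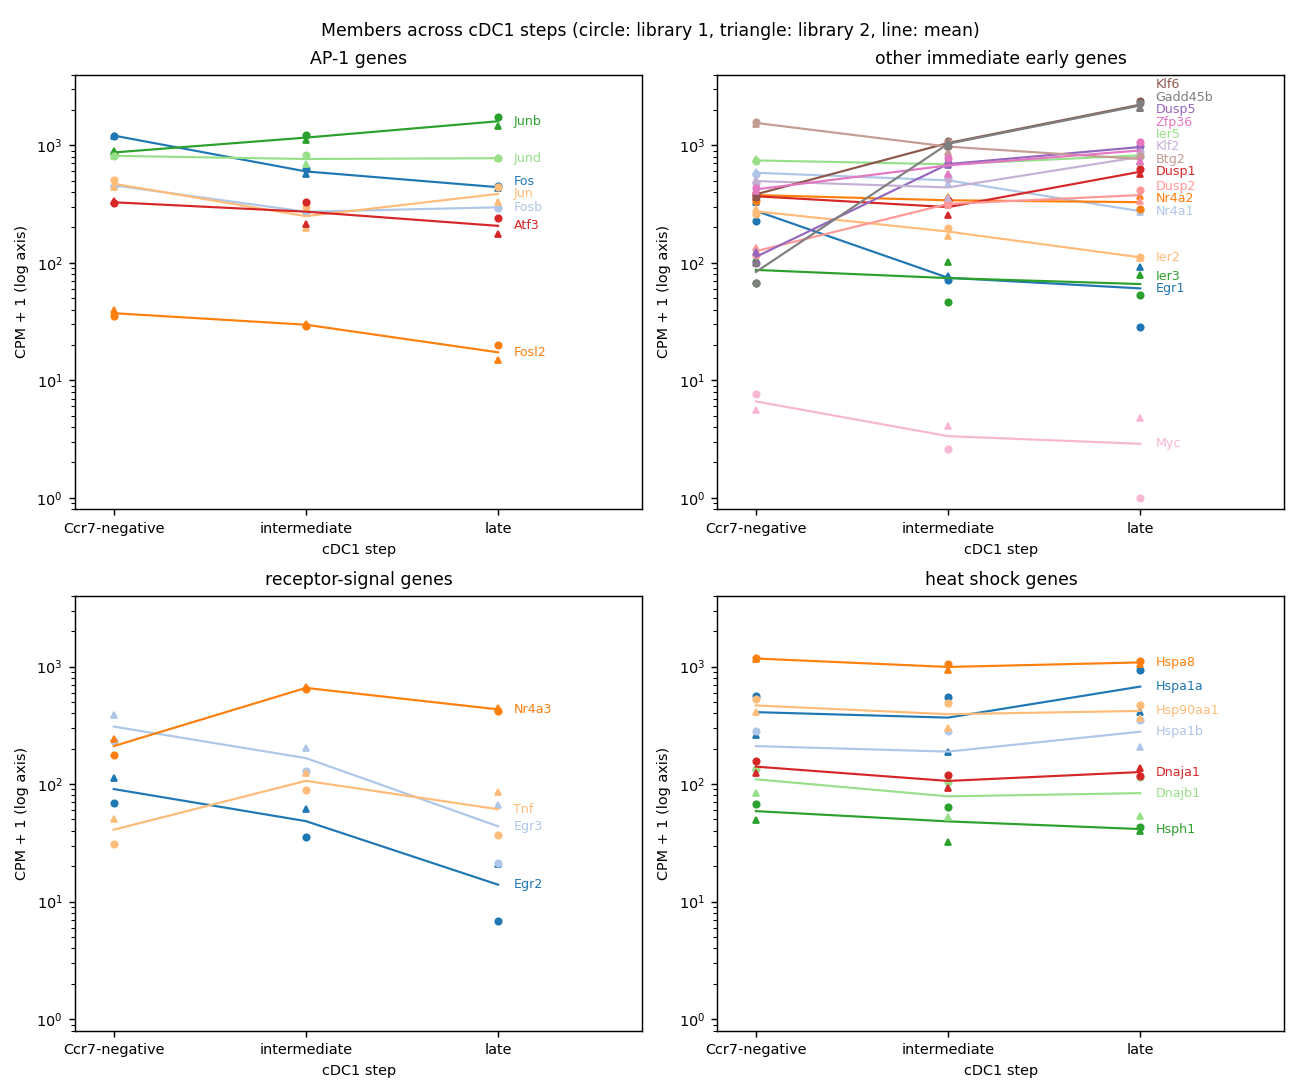
CPM plus 1 on a log axis for each member in Ccr7-negative, intermediate and late cDC1, with 1 panel per role, circles for library 1, triangles for library 2 and lines for the mean. Egr2 and Egr3 slope down, Nr4a3 and Tnf peak in the middle step, Gadd45b and Klf6 climb throughout, and the heat shock lines other than Hspa1a and Hspa1b stay nearly level.

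Between the last 2 steps, Gadd45b (1.09 ± 0.15), Klf6 (1.09 ± 0.11) and Dusp1 (1.01 ± 0.13) were higher in late than in intermediate cDC1. Hspa1a (0.93 ± 0.17), Klf2 (0.87 ± 0.18), Jun (0.64 ± 0.18), Hspa1b (0.63 ± 0.19), Dusp5 (0.49 ± 0.13), Junb (0.47 ± 0.13) and Zfp36 (0.43 ± 0.13) were higher too. Besides the 4 receptor-signal genes, Nr4a1 (-0.87 ± 0.13), Ier2 (-0.73 ± 0.16) and Fos (-0.44 ± 0.13) were lower. The calls of Dusp1, Egr3, Gadd45b, Ier2, Klf6 and Nr4a1 were made in every setting tried. Fos (-0.44), Jun (0.36), Junb (0.24), Dusp5 (0.32), Klf2 (0.50), Zfp36 (0.15), Tnf (-0.73) and Hspa1b (0.27) lost their calls when 1 library was left out, among intermediate cDC1 library 1, intermediate cDC1 library 2, late cDC1 library 1 and late cDC1 library 2, with the smallest such change in brackets.

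Of 24 other immediate early genes, 12 rose and 5 fell in late against Ccr7-negative cDC1, beside 45.0% of all genes changed (21.9% higher, 23.1% lower). In intermediate cDC1 13 rose and 2 fell, beside 28.6% of all genes (15.1% higher, 13.5% lower). The largest late changes were in Arc, a gene best known from neuronal activity (8.33, on 55 and 53 UMIs in late and 16 and 9 in Ccr7-negative cDC1), Bhlhe40, a basic helix-loop-helix repressor (4.34), Plk2 (3.40) and Nfkbia, the feedback inhibitor of NF-kB (2.89), as log2 fold changes. Of 18 other heat shock genes, 17 were tested, and 2 rose and 8 fell in late cDC1, 58.8% of those tested, beside the 45.0% of all genes. Hsf2, a heat shock factor (3.31), and the cochaperone Bag3 (1.86) rose, while the mitochondrial chaperone Hspa9 (-1.63) and Fkbp4 (-1.64), a cytosolic cochaperone, fell. The median of this list was -0.58, and that of the other immediate early list 0.63, beside -0.19 for all genes.

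Late against Ccr7-negative cDC2 gave 11 members higher and 8 lower, beside 25.9% of all genes (13.9% higher, 12.0% lower). Of all genes called, 53.8% were higher, and 65.4% by DESeq2. Egr3 had 44.5 and 52.1 CPM in late cDC2, against 218 and 246 CPM in Ccr7-negative cDC2 (-2.11 ± 0.37 (SE), adjusted p = 1.54e-05). Gadd45b had 1775 and 1818 CPM in late cDC2, against 307 and 347 CPM in Ccr7-negative cDC2 (2.64 ± 0.16 (SE), adjusted p = 2.48e-16). Ccr7-negative cDC1 had 66.3 and 98.8 CPM of Gadd45b, below both Ccr7-negative cDC2 libraries. The same UMI cuts set the steps of both lineages, which differed in depth. Median depth was 9181.5 and 8105 UMIs a cell in Ccr7-negative cDC1, against 3948 and 3840 in Ccr7-negative cDC2. The 8 mature dendritic cell markers summed to 38.3 and 45.4 CPM in Ccr7-negative cDC1 and to 223 and 237 CPM in Ccr7-negative cDC2. A test of the difference between the cDC1 and the cDC2 change called 8 members, beside 6.39% of all genes (4.51% higher, 1.88% lower). The part of depth and of these markers in that difference was not tested. The change was higher in cDC1 for Gadd45b (2.33 ± 0.22 (SE), adjusted p = 2.25e-10), Dusp5 (1.37 ± 0.19 (SE), adjusted p = 1.03e-06), Dusp2, Zfp36 and Junb, and lower for Egr2, Nr4a1 and Fos. Gadd45b and Dusp5 kept that call in every setting tried. Fos (-0.28), Junb (0.49), Nr4a1 (-0.53), Dusp2 (0.46), Zfp36 (0.48) and Egr2 (-1.32) lost their calls when 1 library was left out, among every sum compared in turn, with the smallest such change in brackets. Nr4a3 (0.37 ± 0.22), Tnf (-0.47 ± 0.34), Egr3 (-0.48 ± 0.56) and the 7 heat shock genes did not pass this edgeR test, and no heat shock gene had an unadjusted p under 0.05 there or a call by DESeq2. In the comparison within cDC2, Fosl2 (-0.45), Junb (0.30), Dusp1 (0.40), Dusp2 (0.58), Klf2 (0.46), Egr2 (-0.31), Tnf (0.47) and Hspa1a (0.41) lost their calls when 1 library was left out, among Ccr7-negative cDC2 library 1, Ccr7-negative cDC2 library 2, late cDC2 library 1 and late cDC2 library 2, with the smallest such change in brackets.

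Within Ccr7-negative cDC1, cells were next split by the genes themselves, after thinning each cell to 3000 UMIs and leaving out 249 and 439 shallower cells. A UMI of Egr2 or Egr3 was present in 42.6% (95% Wilson interval 41.2 to 44.1%) of cells of library 1 and 60.6% (95% Wilson interval 59.5 to 61.8%) of library 2, against 2.11% (95% Wilson interval 0.721 to 6.03%) and 9.93% (95% Wilson interval 6.01 to 15.98%) of erythroid-like cells at the same depth, and intervals cover counting error only. Before thinning the summed counts of Egr3 were 10236 and 23335 UMIs. Of 31 members that did not define the split, 21 were higher and 4 lower in cells with such a UMI than in cells without, beside 25.4% of all genes changed (12.8% higher, 12.6% lower). Of all genes called, 50.5% were higher, 57.2% with size factors in place of TMM and 64.3% by DESeq2. The 4 lower members were Hspa1a, Hspa1b, Hsp90aa1 and Myc. Nr4a3 had 331 and 365 CPM in cells with a UMI, against 89.7 and 107 CPM in cells without (1.81 ± 0.07 (SE), adjusted p = 2.42e-41).

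Gadd45b had 120.2 and 149 CPM in cells with Egr2 or Egr3, against 35.0 and 43.2 CPM in cells without (1.77 ± 0.08 (SE), adjusted p = 1.75e-35). Nr4a2 had 611 and 590.4 CPM in cells with Egr2 or Egr3, against 179.7 and 219.9 CPM in cells without (1.57 ± 0.06). Tnf had 47.4 and 67.6 CPM in cells with Egr2 or Egr3, against 19.2 and 33.3 CPM in cells without (1.11 ± 0.10). In each of these the arms did not overlap. Egr1 (1.31 ± 0.07), Fosl2 (1.27 ± 0.11), Dusp5 (1.01 ± 0.07), Nr4a1 (0.90 ± 0.06), Ier3 (0.90 ± 0.08), Fosb (0.87 ± 0.06), Junb (0.73 ± 0.06), Btg2 (0.72 ± 0.05) and Atf3 (0.71 ± 0.06) were also higher, as log2 fold changes. The smaller rises were those of Ier2 (0.70 ± 0.06), Zfp36 (0.63 ± 0.06), Dusp1 (0.54 ± 0.06), Dusp2 (0.52 ± 0.07), Klf6 (0.50 ± 0.06), Ier5 (0.34 ± 0.05) and Jund (0.27 ± 0.05). Fos had the smallest difference among the higher members, and Jun did not pass: Fos had 1358 and 1247 CPM in cells with Egr2 or Egr3, against 1119 and 1124 CPM in cells without (0.19 ± 0.05 (SE), adjusted p = 0.00303), and Jun had 551 and 429 CPM in cells with Egr2 or Egr3, against 479.6 and 435 CPM in cells without (0.07 ± 0.06 (SE), adjusted p = 0.414). Hspa1a was lower, with 483 and 194 CPM in cells with Egr2 or Egr3, against 599 and 327 CPM in cells without (-0.54 ± 0.06 (SE), adjusted p = 1.88e-12). Its call was lost without the library block, at -0.49 (adjusted p = 0.26). Fos (0.14), Myc (-0.29), Hspa1b (-0.18) and Hsp90aa1 (-0.16) lost their calls when 1 library was left out, among the arm with a UMI of library 2, the arm without of library 1 and the arm without of library 2, with the smallest such change in brackets.

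These arms differed in other genes too. Itgae, the CD103 integrin chain, had 49.6 and 45.9 CPM in cells with Egr2 or Egr3, against 29.3 and 26.9 CPM in cells without. Ccr2, a chemokine receptor, had 20.2 and 17.8 CPM in cells with Egr2 or Egr3, against 40.6 and 43.5 CPM in cells without, and the proliferation gene Mki67 had 12.7 and 8.48 CPM in cells with Egr2 or Egr3, against 15.9 and 19.3 CPM in cells without. Among signs of RNA quality and other cells, Gm26917 and Gm42418, which hold ribosomal RNA sequence, summed to 4476 and 4566 CPM in cells with Egr2 or Egr3, against 3418 and 3165 CPM in cells without. The hemoglobin genes summed to 222 and 445 CPM in cells with Egr2 or Egr3, against 162 and 239 CPM in cells without, and mitochondrial genes made up 1.15 and 1.16% of UMIs in cells with Egr2 or Egr3, against 1.03 and 1.04% in cells without. The part of all these in the member differences was not tested. Nr4a3 was higher with each further UMI of Egr2 and Egr3: library 1 had 89.7, 207, 326 and 508 CPM of Nr4a3 in cells with 0, 1, 2 and 3 or more, and library 2 had 107, 214, 313 and 536 CPM. Hspa1a was lower with each further UMI over the same cells, with 599, 541, 453 and 421 CPM in library 1 and 327, 241, 215 and 139 CPM in library 2.

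Cells were then split by summed Fos and Jun at the 75th and the 25th percentile of each class and library. In Ccr7-negative cDC1 of both libraries, at least 7 UMIs were called high and at most 2 low. Of 31 other members, 16 were higher and 2 lower in high cells, beside 2.24% of all genes changed (1.52% higher, 0.719% lower). Hspa1a had 847 and 371 CPM in Fos and Jun high cells, against 306 and 141 CPM in low cells (1.34 ± 0.10 (SE), adjusted p = 3.11e-19). Dnajb1 had 199 and 108 CPM in Fos and Jun high cells, against 76.2 and 57.4 CPM in low cells (1.06 ± 0.11 (SE), adjusted p = 3.83e-12). Within each library the high cells were above the low cells for both genes. Dusp1 had 637 and 536 CPM in Fos and Jun high cells, against 207 and 236 CPM in low cells (1.31 ± 0.11), and Klf2 had 726 and 765 CPM in Fos and Jun high cells, against 284 and 289 CPM in low cells (1.29 ± 0.11). Egr1 had 396 and 509 CPM in Fos and Jun high cells, against 125 and 220.4 CPM in low cells (1.31 ± 0.11), so Egr1 was higher in both splits. Hspa1b (1.17 ± 0.11), Klf6 (0.93 ± 0.11), Ier2 (0.85 ± 0.11), Fosb (0.72 ± 0.10), Ier3 (0.68 ± 0.12), Ier5 (0.62 ± 0.10), Zfp36 (0.58 ± 0.11), Jund (0.54 ± 0.10) and Hsp90aa1 (0.45 ± 0.10) were higher as well.

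The receptor-signal genes did not follow Fos and Jun as one list. Egr3 had 277 and 397 CPM in Fos and Jun high cells, against 220.4 and 418 CPM in low cells, a change of 0.02 ± 0.11 (SE), adjusted p = 0.972, with opposite directions in the 2 libraries. Nr4a3 was lower, with 176 and 200.5 CPM in Fos and Jun high cells, against 185 and 319 CPM in low cells (-0.49 ± 0.11 (SE), adjusted p = 0.0042), and so was Dusp5 (-0.58 ± 0.12 (SE), adjusted p = 0.000594). Without the low cells of library 2 the change of Nr4a3 was -0.15 (adjusted p = 0.67) and that of Dusp5 -0.15 (adjusted p = 0.7), so both rest on those cells. Jund (0.47), Ier3 (0.51), Dusp5 (-0.15), Zfp36 (0.37), Nr4a3 (-0.15), Tnf (0.45) and Hsp90aa1 (0.31) lost their calls when 1 library was left out, among the high arm of library 1, the high arm of library 2, the low arm of library 1 and the low arm of library 2, with the smallest such change in brackets. Egr2 had 98.6 and 140.4 CPM in Fos and Jun high cells, against 46.8 and 87.1 CPM in low cells (0.75 ± 0.13 (SE), adjusted p = 9.58e-06), and Tnf had 43.3 and 66.3 CPM in Fos and Jun high cells, against 25.2 and 43.6 CPM in low cells (0.58 ± 0.13 (SE), adjusted p = 0.00249). The calls of both were among 8 of the 18 in this split that were lost under at least 1 other setting. DESeq2 called 0 receptor-signal genes in this split, with Egr2 at 0.81 (adjusted p = 0.78), Tnf at 0.60 (adjusted p = 0.38) and Nr4a3 at -0.47 (adjusted p = 0.61). Mki67 had 24.4 and 20.2 CPM in high cells, against 8.47 and 7.57 CPM in low cells. Gm26917 and Gm42418 summed to 3612 and 3251 CPM in high cells, against 4055 and 4296 CPM in low cells, and the hemoglobin genes to 183 and 447 CPM in high cells, against 66.0 and 368 CPM in low cells. The part of these in the member differences was not tested.

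The third split took cells with a UMI of Hspa1a or Hspa1b, 64.5% (95% Wilson interval 63.1 to 65.9%) of cells of library 1 and 43.9% (95% Wilson interval 42.7 to 45.1%) of library 2, against 31.7% (95% Wilson interval 24.6 to 39.7%) and 27.0% (95% Wilson interval 20.3 to 34.8%) of erythroid-like cells. Of 31 other members, 10 were higher and 7 lower in these cells than in cells without, beside 2.74% of all genes (1.26% higher, 1.48% lower). Jun had 663 and 612 CPM in cells with Hspa1a or Hspa1b, against 232 and 290.1 CPM in cells without (1.22 ± 0.10 (SE), adjusted p = 1.37e-14). Dnajb1 had 163 and 107 CPM in cells with Hspa1a or Hspa1b, against 70.3 and 59.9 CPM in cells without (0.97 ± 0.09 (SE), adjusted p = 1.01e-11). Both kept their call under every setting tried. Tnf had 40.3 and 70.3 CPM in cells with Hspa1a or Hspa1b, against 14.6 and 41.4 CPM in cells without (0.88 ± 0.12 (SE), adjusted p = 4.54e-07), and Fos had 1377 and 1371 CPM in cells with Hspa1a or Hspa1b, against 939 and 1063 CPM in cells without (0.41 ± 0.10 (SE), adjusted p = 0.00491). Hsph1 (0.65 ± 0.11), Hsp90aa1 (0.50 ± 0.09), Klf2 (0.49 ± 0.10), Ier3 (0.48 ± 0.12), Klf6 (0.40 ± 0.10) and Dnaja1 (0.33 ± 0.09) were higher too. Mki67 had 18.2 and 17.0 CPM in cells with Hspa1a or Hspa1b, against 7.95 and 9.43 CPM in cells without, and its part was not tested.

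Nr4a3 was lower in cells with Hspa1a or Hspa1b, with 159 and 188 CPM, against 253 and 322 CPM in cells without (-0.78 ± 0.10 (SE), adjusted p = 1.26e-07). Egr3 had 234 and 345 CPM in cells with Hspa1a or Hspa1b, against 304 and 466 CPM in cells without (-0.46 ± 0.10 (SE), adjusted p = 0.00212). Dusp5 (-0.65 ± 0.09), Nr4a2 (-0.58 ± 0.10), Fosl2 (-0.57 ± 0.12), Gadd45b (-0.46 ± 0.11) and Atf3 (-0.43 ± 0.09) were lower as well, and Egr2 was not called (0.01 ± 0.11). By edgeR, Tnf thus stood apart from Egr3 and Nr4a3: it was higher in all 3 splits. DESeq2 called Tnf only in the Egr2 or Egr3 split (adjusted p = 7.18e-06). Fos (0.31), Fosl2 (-0.39), Atf3 (-0.40), Ier3 (0.25), Dusp5 (-0.42), Klf2 (0.35), Klf6 (0.20), Gadd45b (-0.12), Egr3 (-0.36), Hsp90aa1 (0.38), Hsph1 (0.52) and Dnaja1 (0.30) lost their calls when 1 library was left out, among the arm with a UMI of library 1, the arm with a UMI of library 2, the arm without of library 1 and the arm without of library 2, with the smallest such change in brackets. DESeq2 called 5 members of this split, and Nr4a3, Egr3 and Tnf did not pass there, at -0.76 (adjusted p = 0.3), -0.44 (adjusted p = 1) and 1.01 (adjusted p = 0.31).

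By edgeR, the other immediate early genes gave 17 higher and 1 lower of 23 tested in the Egr2 or Egr3 split, beside 25.4% of all genes called, and DESeq2 called 16. They gave 7 higher and 0 lower of 23 tested in the Fos and Jun split, beside 2.24% of all genes, and DESeq2 called 2. In the Hspa1a or Hspa1b split they gave 1 higher and 3 lower of 23 tested, beside 2.74% of all genes, and DESeq2 called 1. The other heat shock genes gave 1 higher and 7 lower of 17 tested by edgeR in the Egr2 or Egr3 split, and DESeq2 called 1. In the Fos and Jun split they had 0 of 13 called by edgeR, 2 at an unadjusted p under 0.05 and 0 by DESeq2, and in the Hspa1a or Hspa1b split 0 of 14 called by edgeR, 3 at an unadjusted p under 0.05 and 0 by DESeq2.

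**Figure D3:**
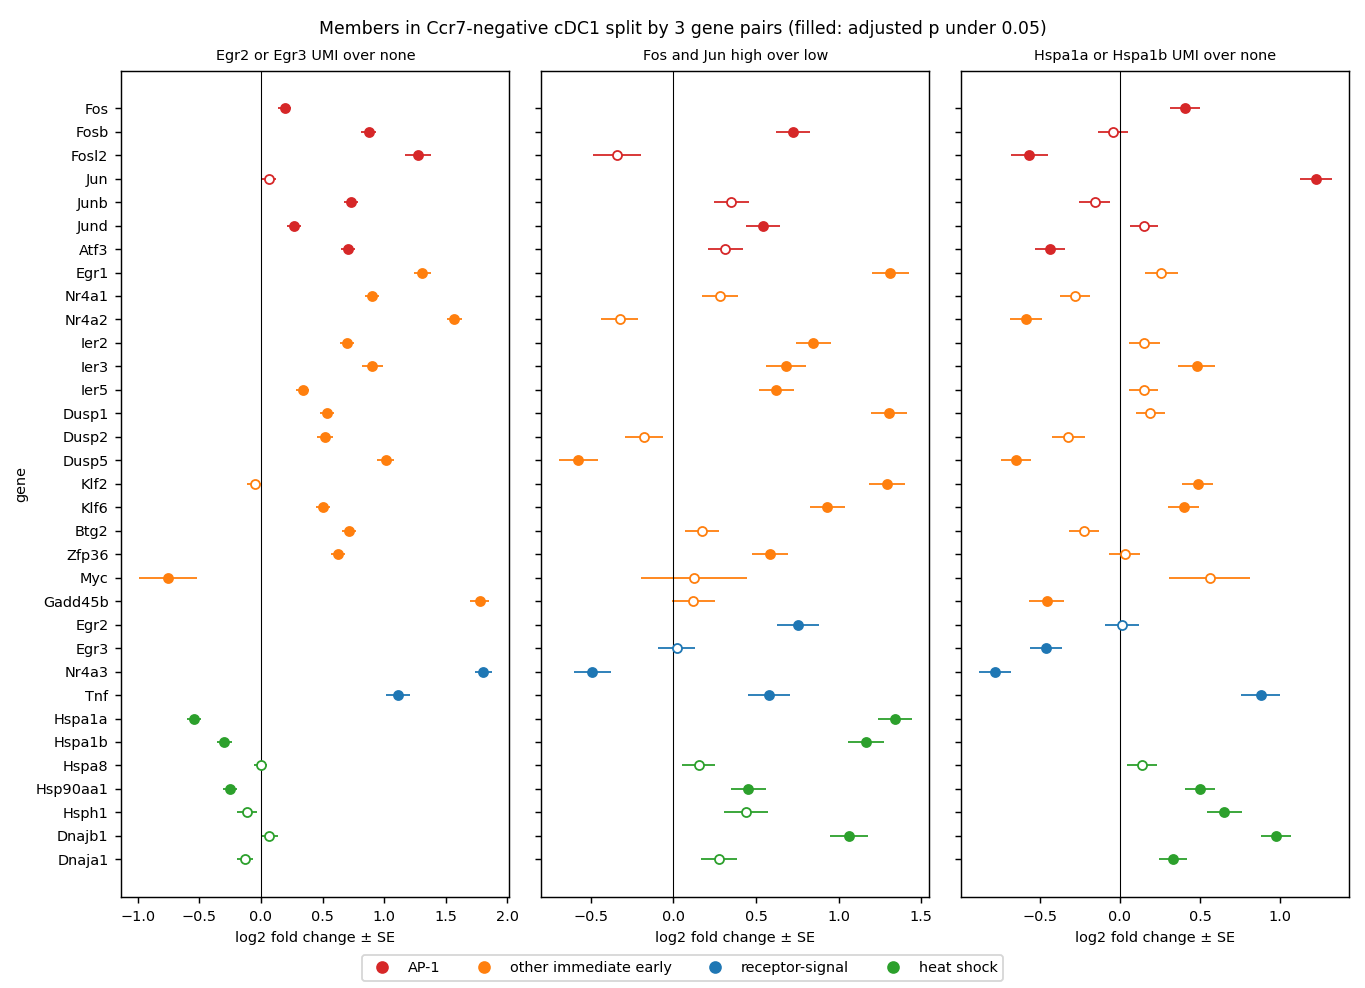
Log2 fold changes with SE of the members in Ccr7-negative cDC1 between cells with and without Egr2 or Egr3 UMIs (left), high and low in Fos and Jun (middle) and with and without Hspa1a or Hspa1b UMIs (right), with filled points for adjusted p under 0.05. Nr4a3 is at 1.81 on the left and at -0.49 and -0.78 in the other panels, while Hspa1a is at -0.54 on the left and 1.34 in the middle.

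Cell by cell, the same division appeared in Ccr7-negative cDC1 as rank correlations of thinned counts. These are given as descriptions because counts are sparse and cells share a library. Fos and Jun against the receptor-signal genes had a Spearman rho of 0.10 in library 1 and -2.8e-05 in library 2, over 4489 and 6746 Ccr7-negative cDC1. Fos and Jun against Hspa1a and Hspa1b had 0.33 in library 1 and 0.26 in library 2, and the receptor-signal genes against Hspa1a and Hspa1b -0.10 in library 1 and -0.15 in library 2. Egr3 against Nr4a3 reached 0.35 in library 1 and 0.38 in library 2, and Fos against Jun 0.26 in library 1 and 0.23 in library 2. Tnf was lower, with 0.10 in library 1 and 0.10 in library 2 against Egr3. Against Nr4a3, Tnf had 0.06 in library 1 and 0.08 in library 2. Egr1 had similar values against Fos, 0.28 in library 1 and 0.23 in library 2, and against Egr3, 0.30 in library 1 and 0.27 in library 2. Its values against Nr4a3 were lower, 0.17 in library 1 and 0.10 in library 2. In the later steps, given as library 1 and library 2, Egr3 against Nr4a3 had 0.12 and 0.11 in intermediate and 0.02 and -0.04 in late cDC1. Fos and Jun against the receptor-signal genes had -0.25 and 0.15 in intermediate and -0.02 and 0.03 in late cDC1. Against Hspa1a and Hspa1b, Fos and Jun had 0.36 and 0.03 in intermediate and 0.21 and 0.19 in late cDC1. In Ccr7-negative cDC2, Fos and Jun against the receptor-signal genes gave 0.22 in library 1 and 0.18 in library 2. Against Hspa1a and Hspa1b they gave less there, 0.10 in library 1 and 0.08 in library 2, the reverse of the order in Ccr7-negative cDC1. The receptor-signal genes against Hspa1a and Hspa1b gave -0.22 in library 1 and -0.16 in library 2 of these cDC2.

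The splits could be repeated where both arms held 30 cells in each library. By the percentile rule the Fos and Jun cuts differed between classes. In Ccr7-negative cDC2 high meant at least 12 and 10 UMIs, and low at most 4 and 3. In T cell-like and erythroid-like cells high meant at least 2 UMIs, and low 0. Fold changes of this split thus rest on unlike cuts between classes. In Ccr7-negative cDC2, 22 of 31 members were higher in Fos and Jun high cells, beside 2.93% of all genes changed. There Egr2 (1.65), Egr3 (0.90), Nr4a3 (0.49) and Tnf (1.05) were all higher, as log2 fold changes. Whether this differs from cDC1 was not tested. In T cell-like cells 13 members were higher, beside 2.16%, Egr1 (2.61), Hspa1a (2.62) and Egr3 (2.22) among them. Thinning had left out 432 of 881 and 418 of 759 T cell-like cells as too shallow. Of Ccr7-negative cDC2 it left out 277 of 1310 and 302 of 1429, so these splits describe the deeper cells. In erythroid-like cells 8 were higher, beside 0.901%, with Egr1 at 2.52 and Hspa1a not called at 0.73. The Egr2 or Egr3 split in Ccr7-negative cDC2 gave 22 higher and 2 lower, beside 7.06%, and the 2 lower were Hspa1a (-0.90) and Hspa1b (-0.89). The Hspa1a or Hspa1b split there gave 5 higher and 9 lower, beside 3.40%, with Dnajb1 at 1.11 and Nr4a3 at -0.85. In T cell-like cells that split gave 5 higher, beside 0.749%, Fos (1.53) and Egr1 (1.59) among them, and in erythroid-like cells only Jund was called, lower at -0.87, beside 0.0520%.

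The libraries themselves differed in these genes, in opposite directions for the heat shock and the receptor-signal members. In Ccr7-negative cDC1 Hspa1a had 259 CPM in library 2, against 558 CPM in library 1. As log2(CPM + 10) the difference of -1.08 was the lowest of 2466 genes with at least 50 CPM, Hspa1b (-0.996) was the second lowest and Dnajb1 (-0.62) ranked 4 from the lowest. Hsph1 (-0.40), Hsp90aa1 (-0.36) and Dnaja1 (-0.34) ranked 10, 17 and 20, and Hspa8 (-0.04) lay in the middle. At the other end, Egr3 had 384 CPM in library 2, against 231 CPM in library 1, a difference of 0.71 that ranked 3 from the highest. Egr2 (0.64), Ier3 (0.60), Egr1 (0.52), Gadd45b (0.51) and Nr4a3 (0.43) ranked 5, 6, 11, 12 and 18 from the highest. Fos differed by -0.003 and Jun by -0.20.

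The direction recurred in other cell classes for some of these genes. Hspa1a was lower in library 2 in 13 of 14 classes, with a median difference of -0.83, and Dnajb1 likewise in 13 of 14, with -0.35. Tnf was lower in library 2 in 2 of 14 classes, with a median of 0.51, and Egr3 in 3 of 14, with 0.55. These counts include classes where the genes were low. The lowest mean of Tnf was 4.94 CPM, in plasma cell-like cells, where 3 counts correspond to 6.65 and 5.75 CPM. That of Egr3 was 18.4 CPM, in erythroid-like cells. Nr4a3 was lower in 7 of 14, so its difference in Ccr7-negative cDC1 was not shared by most classes. With 1 library on each side there is no test of these differences, and mouse, sort and library preparation cannot be told apart. The main edgeR tests kept the library as a block.

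**Figure D4:**
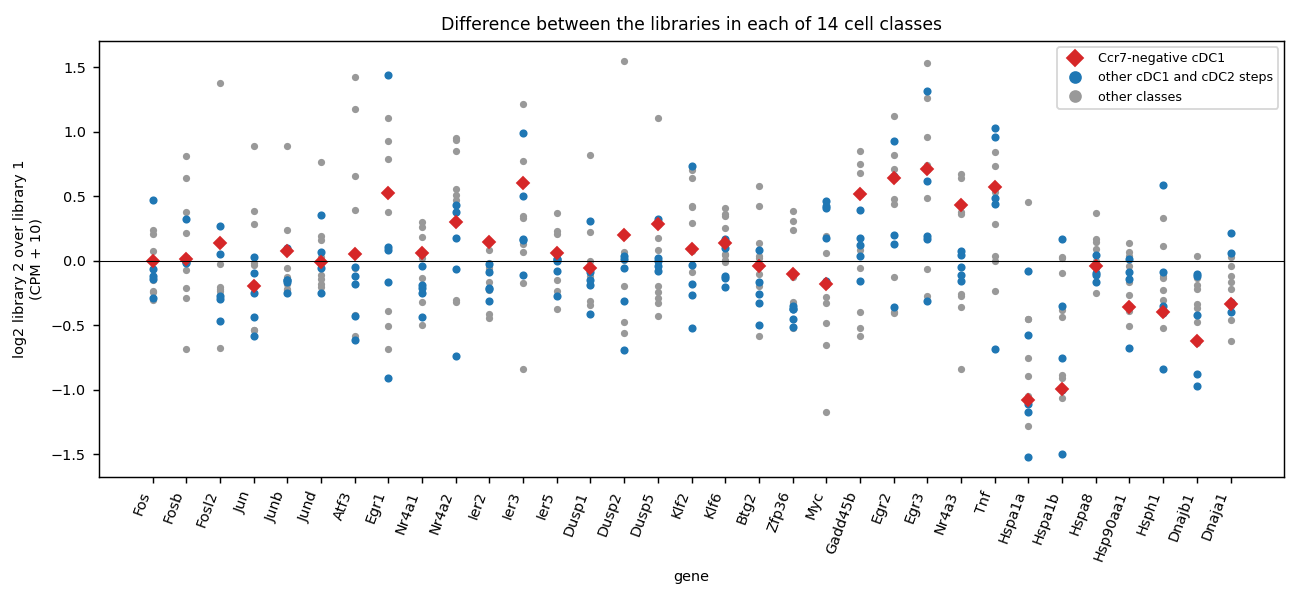
Log2 ratio of library 2 over library 1, computed on CPM + 10, for each member in 14 cell classes, with red diamonds for Ccr7-negative cDC1, blue points for the other cDC1 and cDC2 steps and grey points for other classes. Hspa1a and Hspa1b lie below 0 in most classes, Egr3 and Tnf above 0, and Fos sits near 0 in Ccr7-negative cDC1.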

How the data were processed

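RNA and antibody UMI counts of both spleen libraries were deposited by the authors in 1 aggregated matrix, made with Cell Ranger 3.1.0 per the file headers. The submitters' processing notes name mm10, STAR and Seurat 3.1.4. Libraries 1 and 2 are told apart by the barcode suffix. The sources do not say which labelled replicate each suffix is, or whether reads were equalised between libraries on aggregation. Cells were kept if they had 500 genes or more, 1000 RNA UMIs or more and no more than 10% mitochondrial UMIs, and doublets called per library with Scrublet were removed. Clusters (Scanpy 1.11.5, 2000 variable genes without the members and 2 further gene lists, 30 principal components, 15 neighbours, resolution 1) were named from marker lists, and the naming rule was refined after its first outcome, in which mature dendritic cell clusters had been called macrophages. Cells passing an antibody gate but lying in a cluster named as another lineage were left out of it (204 of 13739 for cDC1), and red pulp macrophage-like cells were too few for the fits.

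The UMI counts of each class were added up within a library, and these sums went into edgeR 4.0.16 (R 4.3.3; quasi-likelihood test, TMM, filterByExpr, Benjamini-Hochberg at 0.05 over all genes), in 1 fit over the classes that held 30 or more cells in both libraries. The library was a block, since every class sum of a library comes from the same cell preparation, which pairs them. Ccr7 and Fscn1 were left out of the step tests, and the genes that define a split out of that split, where cells were first thinned to 3000 UMIs. Levels are summed UMI counts scaled to a common total (CPM), and log2 levels add 10 CPM. Intervals cover counting error only. The scripts were tested on simulated data. The members, lists and tests were chosen with earlier results of these data known. Each member called in the late, intermediate or split comparisons of cDC1 is given with values per library, ordered by role, and the other lists by counts with at most 4 genes named by the largest change. Alternatives were DESeq2 1.42.0, size factors, no filter on low counts, no library block, kept doublets, stricter cell filters, other gates, steps, thinning and resolutions, and leaving out 1 sum at a time.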

Additional observations from a re-analysis of the deposited data

Results flagged for a closer look

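The change of 8 members with maturation, late against Ccr7-negative, differed between cDC1 and cDC2 by an interaction test (edgeR, adjusted p under 0.05), given here as the cDC1 change minus the cDC2 change on the log2 scale. Gadd45b rose more in cDC1, with a difference of 2.33, and so did the MAP kinase phosphatases Dusp5, with 1.37, and Dusp2, with 0.769. Zfp36 (0.751) and the AP-1 subunit Junb (0.710) rose in both lineages and more in cDC1. Egr2 fell more in cDC1, with a difference of -1.76, and Fos did so with -0.585. Nr4a1 fell in cDC1 and was not called in cDC2 (-0.27 ± 0.12), with a difference of -0.596. Gadd45b and Dusp5 were called in this test under every alternative tried, and the other 6 were not. The Ccr7-negative cDC2 gate held 745 and 791 CPM of summed cDC1 markers. Mature dendritic cell markers summed to 223 and 237 CPM there, against 38.3 and 45.4 CPM in Ccr7-negative cDC1. The cDC2 were also shallower, at a median of 3948 and 3840 UMIs a cell, against 9181.5 and 8105 in Ccr7-negative cDC1. The part of these markers and of depth in the differences was not tested.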

How the results depend on the processing

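No member called in a comparison changed direction under any alternative tried. The calls made in every alternative were 16 of 22 in late against Ccr7-negative cDC1, 11 of 16 in intermediate against Ccr7-negative cDC1, 6 of 17 in late against intermediate cDC1, 11 of 19 in cDC2, 2 of 8 between lineages, 20 of 25 in the Egr2 or Egr3 split, 10 of 18 in the Fos and Jun split and 2 of 17 in the Hspa1a or Hspa1b split. With the gate at 5 antibody UMIs, members called in late against intermediate cDC1 numbered 10, against 17, and between lineages 4, against 8, while all genes called numbered 1025, against 2130, and 402, against 688. With doublets kept, the members between lineages were 2, and all genes were 1384 in late against intermediate cDC1 and 117, against 196, in the Fos and Jun split. With DESeq2 in place of edgeR, 5 members were called between lineages and 5, against 17, in the Hspa1a or Hspa1b split. DESeq2 called 639 of all genes, against 2707, in the Egr2 or Egr3 split, 48 in the Fos and Jun split and 43, against 263, in the Hspa1a or Hspa1b split. The classes of a library are paired by that library, and without the library block 3 members were called between lineages, and 1625, 80 and 134 genes in the 3 splits in that order. The cause of these shifts was not tested. Leaving out the sum of 1 class or arm in 1 library, where the remaining sum is assumed to vary like the other classes, gave these ranges of members called and of all genes called: 18 to 22 and 3561 to 4788 for late cDC1, 13 to 16 and 1872 to 2807 for intermediate cDC1, 10 to 15 and 1327 to 1576 for late against intermediate cDC1, 13 to 19 and 1797 to 2641 for late cDC2, 3 to 7 and 396 to 616 between lineages, 21 to 25 and 884 to 1461 for the Egr2 or Egr3 split, 14 to 19 and 57 to 168 for the Fos and Jun split, and 8 to 14 and 79 to 183 for the Hspa1a or Hspa1b split. For levels across cell types, the mean correlation of Fos and Jun with the receptor-signal genes was 0.489, and 0.547 and 0.521 at the other clustering resolutions. Late and intermediate cDC1 held at most 158 cells in a library, so members below about 3 counts there, such as Myc, could not be compared.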
